A study of Apis mellifera with 12 samples.

Results

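Gene GB51044, named Dat by the study through its Drosophila ortholog, encodes a predicted arylalkylamine N-acetyltransferase, and its transcript was followed here across the brains of 3 groups of honey bee queens (Apis mellifera, strain ligustica). It was chosen by its row in the deposited count table, with earlier results of these data known. It is 1 of 15314 genes in that table, of which 13038 had enough reads to be tested. Mated queens (n = 4) had been allowed out of the hive from day 6 and had completed a mating flight. CO2-treated queens (n = 4) were unmated and were caged and narcotized with carbon dioxide for 10 min on day 6 and again on day 7. Virgin queens (n = 4) were unmated, and were caged beside the CO2-treated queens but not narcotized. All 12 were sisters from 1 source colony, each lived in a small colony of its own, and all were collected at 8 days of age, so the spread between queens is that of 1 family. The mated queens alone flew, and caging is described for the unmated groups only. On dissection the study found developing eggs in all mated queens and none in CO2-treated or virgin queens. Mating, flight, caging and ovary activation therefore cannot be told apart in comparisons with the mated queens.

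N-acetylation is a main route by which insects inactivate dopamine, serotonin and octopamine, because insect nervous tissue relies little on monoamine oxidase. In Drosophila the enzyme encoded by Dat (also called speck) transfers an acetyl group to these amines, and N-acetyldopamine made by it is also a building block for hardening and colouring the cuticle. Dopamine in honey bees is known for its links to the reproductive state of workers and queens.

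Each brain gave 1 RNA-seq library of 12434733 to 20677514 counted reads. A single gene, GB49544, which carries no annotation in the sources used here, took 13.7 to 42.7% of the reads in mated queens, 1.12 to 5.02% in CO2-treated queens and 0.153 to 2.89% in virgin queens. Levels are therefore given as CPM, read counts scaled to a common library size, after TMM normalization, which rescales each library so that most genes are level between libraries. The TMM factors were 0.556 to 1.03 in mated queens, 1.09 to 1.29 in CO2-treated queens and 1.06 to 1.37 in virgin queens.

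Dat was lower in the brains of mated queens than in those of virgin queens, and the mean of CO2-treated queens lay between theirs. Dat stood at 107, 120, 120 and 72.1 CPM in mated queens 1, 4, 6 and 7. It stood at 177, 149, 166 and 144 CPM in CO2-treated queens 1, 2, 5 and 7. It stood at 289, 368, 140 and 227 CPM in virgin queens 1, 2, 4 and 6. All 4 mated queens were below all 8 other queens, with the highest mated queen at 120 CPM and the lowest of the others, virgin queen 4, at 140 CPM. Mated queens thus overlapped neither unmated group, whereas CO2-treated and virgin queens overlapped, since virgin queen 4 was below every CO2-treated queen. Such a separation of the mated queens on the low side was seen in 0.913% of the genes tested. These are whole-brain levels, so fewer cells that express Dat and less Dat RNA per cell cannot be told apart.

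**Figure D1:**
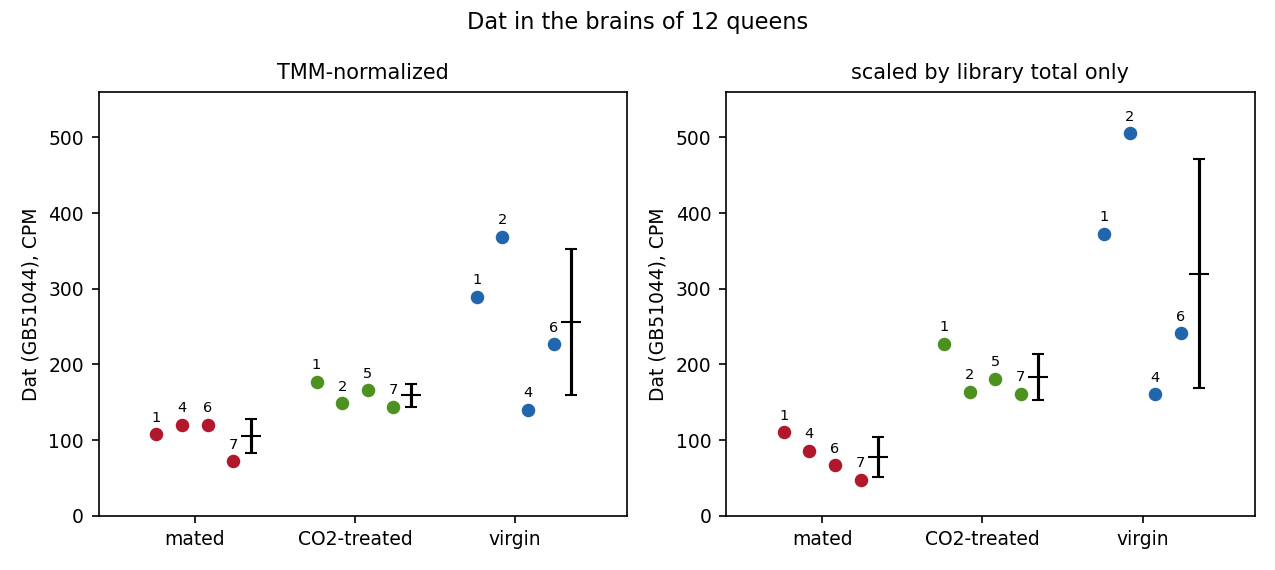
Dat (GB51044) in CPM (linear axis from 0) in each queen, on the left after TMM normalization and on the right scaled by the library total only. Points are queens, labelled with their numbers, and the black marks beside them are the group mean and SD (n = 4 each). In both panels the 4 mated queens lie below all others, and virgin queens 1 and 2 are the highest.

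The groups also differed in how much their members varied. Dat averaged 105 ± 22.7 CPM in mated queens, 159 ± 15.2 CPM in CO2-treated queens and 256 ± 96.7 CPM in virgin queens (SD, n = 4 each). The highest virgin queen had 2.63-fold the level of the lowest, against 1.67-fold among mated and 1.23-fold among CO2-treated queens. The values rest on 798 to 7468 reads each, and counting error was far below this spread. The coefficient of variation was 8.15 times the counting error in mated, 5.18 times in CO2-treated and 25.9 times in virgin queens. The difference in spread between groups was not tested. Over the 12 queens the log2 CPM of Dat and GB49544 had a Pearson correlation of -0.90, and -0.70 after group means were removed. GB49544 took 0.162 and 0.153% of the reads in virgin queens 1 and 2, against 2.88 and 2.89% in virgin queens 4 and 6. These values share the libraries and their scaling, and a link between the 2 genes was not tested.

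The comparison of mated with virgin queens asks what mating changes in the brain. Dat was 2.44-fold lower in mated queens, a log2 fold change of -1.29 (SE 0.27, 95% interval -1.88 to -0.70), and passed the threshold with an adjusted p of 0.0382 (quasi-likelihood test of edgeR, Benjamini-Hochberg adjustment over all 13038 genes). In that comparison 1.2% of the genes tested were called, 0.951% higher and 0.253% lower in mated queens, while 5.88% did not overlap between the groups and 2.48% did so with mated queens lower. A two-sided exact permutation test of the log2 CPM of this gene alone gave a difference of -1.23 and p = 0.0286, the smallest that 4 against 4 queens allow. Groups that do not overlap can give no other p, so it adds nothing to the separation. The study had already reported Dat as lower in mated queens from these same libraries. The call was close to the threshold: edgeR's quasi-likelihood adjusted p was 0.0737 without mated queen 4, 0.0800 without mated queen 6, 0.112 without mated queen 7, 0.0866 without virgin queen 1 and 0.124 without virgin queen 2, while the log2 fold change stayed between -1.49 and -1.06. With only the mated and virgin queens in edgeR's fit the adjusted p was 0.154, and scaled by library totals without TMM the log2 fold change was -2.04 against a median of -0.79 over all genes.

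Dat was an abundant transcript among those that fell. Its average of 173 CPM placed it at rank 977 of the 13038 genes tested. Of the 33 genes called lower in mated than in virgin queens, 26 fell further on the log2 scale. Of the 896 other genes within 0.5 log2 units of its average level, 2 fell at least as far and 1 was called lower. Its biological coefficient of variation, 1 estimate from edgeR for all 3 groups, was 29.0%, against a median of 27.0% for those genes. That estimate is drawn towards genes of similar level, so the closeness is partly built in. Within groups the coefficient of variation of its CPM was 21.6% in mated, 9.55% in CO2-treated and 37.8% in virgin queens.

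**Figure D2:**
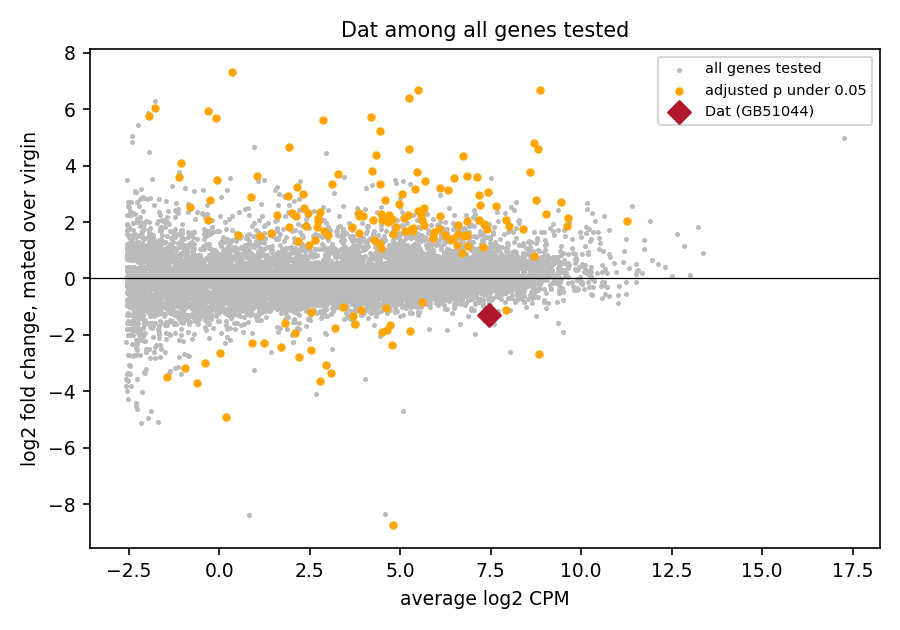
Log2 fold change of mated over virgin queens against the average log2 CPM for the 13038 genes tested (grey), with the 157 genes that passed an adjusted p of 0.05 in orange and Dat as a red diamond. Dat, at a log2 fold change of -1.29, lies to the right of most of the 33 genes called lower.

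The comparison of mated with CO2-treated queens sets mating against a narcosis that is known to start egg laying in unmated queens. In these CO2-treated queens no eggs had yet been found at collection. The log2 fold change of Dat in mated over CO2-treated queens was -0.60 (SE 0.27, 95% interval -1.18 to -0.02), which did not pass with an adjusted p of 0.347 in edgeR's quasi-likelihood fit. The 4 mated queens were below all 4 CO2-treated queens. The two-sided exact permutation test of the single gene gave -0.62 with p = 0.0286, the only p that such a separation allows. Of the genes tested, 0.66% were called in this comparison and 0.138% were called lower, while 10.8% did not overlap between the groups and 5.33% did so with mated queens lower, so that the separation alone was common. Scaled by library totals without TMM the log2 fold change was -1.24, against a median of -0.67 over all genes, with an adjusted p of 0.0694 in edgeR.

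The comparison of CO2-treated with virgin queens sets narcosis against no narcosis among caged, unmated queens. The log2 fold change of Dat in CO2-treated over virgin queens was -0.69 (SE 0.27, 95% interval -1.27 to -0.11), which did not pass with an adjusted p of 0.832 in edgeR's quasi-likelihood fit. Here 0.0153% of the genes tested were called, and none of them was lower. The exact permutation test gave a difference of -0.61 with p = 0.143, and 4.43% of all genes did not overlap between these groups. Virgin queen 4 alone made the groups overlap, so leaving it out separates them by construction, and the p of 0.0286 that the exact test then gives (difference -0.87) is no added support. Without that queen the adjusted p in edgeR's quasi-likelihood fit was 0.453. Set against the midpoint of the mated and virgin means on the log2 scale, CO2-treated queens differed by -0.05 (SE 0.23, 95% interval -0.55 to 0.46, adjusted p = 0.975 in edgeR's quasi-likelihood fit), an interval that leaves room for a level well to either side of the midpoint. The 3 comparisons share queens and are not independent.

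**Figure D3:**
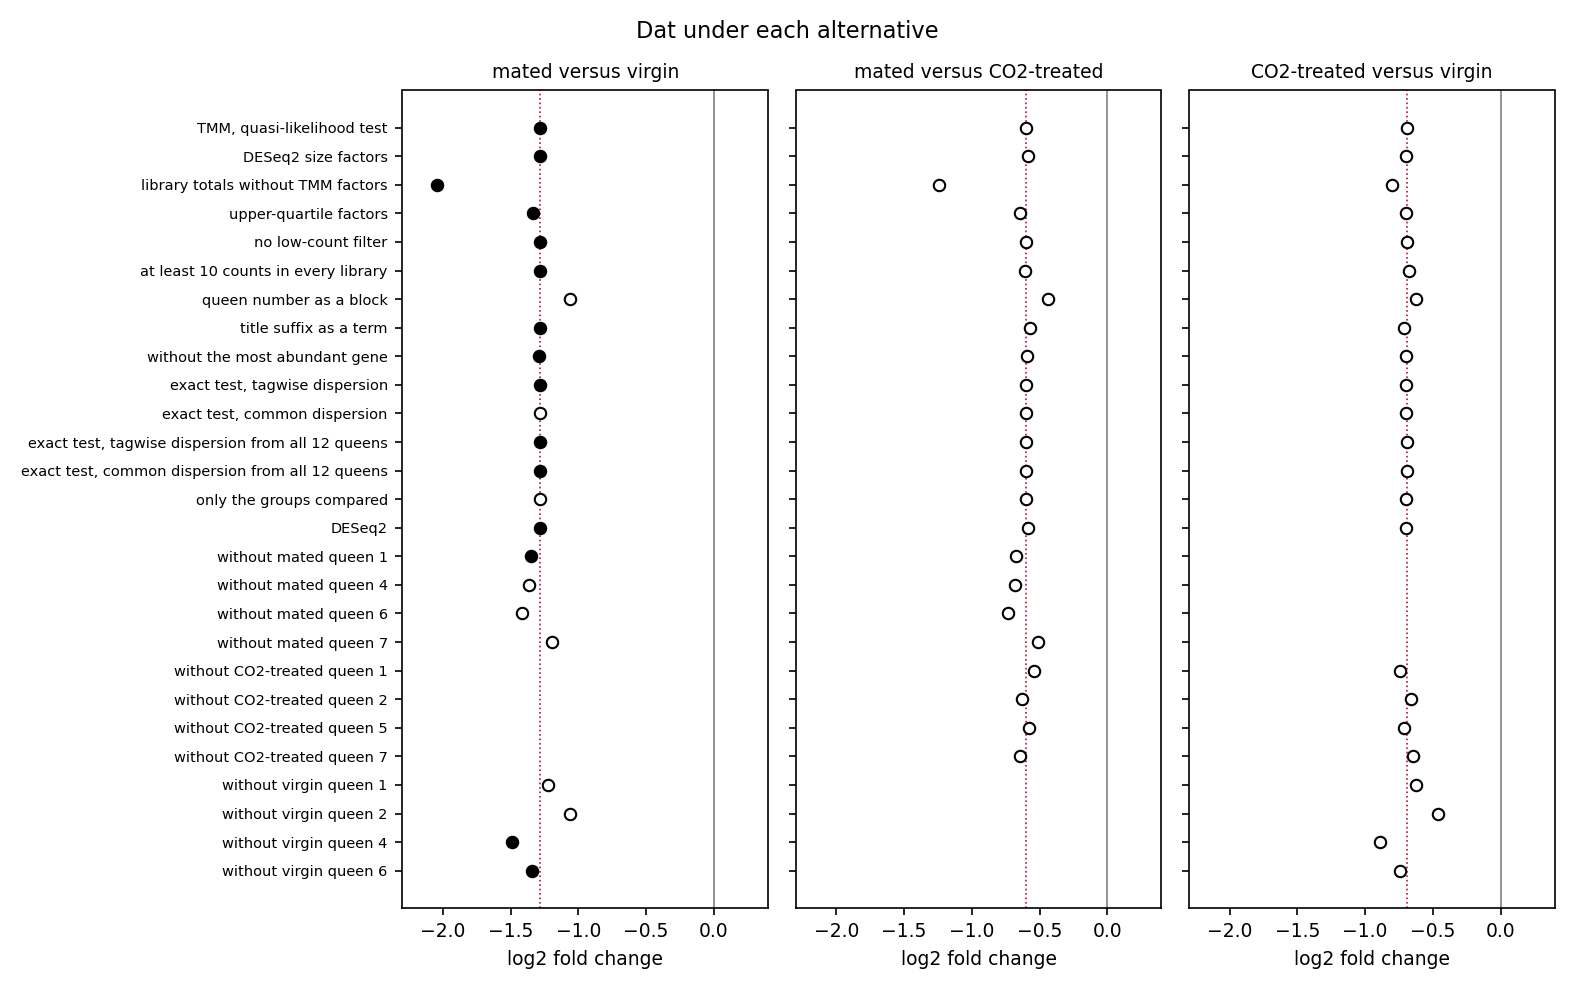
Log2 fold change of Dat in the 3 comparisons under each normalization, filter, test and model tried, and with each queen left out in turn. Filled circles passed an adjusted p of 0.05, open circles did not, the dotted line is the value reported in the text and the grey line marks no difference. All circles lie below 0, and filled ones appear in the comparison of mated with virgin queens.

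Dat acts at the end of amine metabolism, and other genes of amine and amino acid metabolism were examined beside it where a row could be matched. Of a list of 33 genes of biogenic amine synthesis, inactivation, transport and reception, 2 could be matched to rows of the table, Dat itself and Trh (GB44366). The enzymes that make dopamine and octopamine were therefore not examined. The match rests on ortholog names that the study gives for genes it had called in these same libraries. Their behaviour is therefore not independent evidence of a direction. Trh encodes tryptophan hydroxylase, which carries out the first step of serotonin synthesis.

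The group means of Trh had the same order as those of Dat. It stood at 12.7, 14.6, 7.31 and 11.3 CPM in mated queens 1, 4, 6 and 7, at 21.9, 19.1, 16.3 and 19.9 CPM in CO2-treated queens 1, 2, 5 and 7, and at 45.6, 31.2, 19.3 and 18.8 CPM in virgin queens 1, 2, 4 and 6. Mated queens were again below all others, and virgin queens 1 and 2 were again the highest. The log2 fold change of mated over virgin queens was -1.32 (SE 0.30) with an adjusted p of 0.0550 in edgeR's quasi-likelihood fit, just outside the threshold. DESeq2 gave an adjusted p of 0.00320, and edgeR's quasi-likelihood test without virgin queen 6 gave 0.0314. Trh passed in 5 of 12 other settings and in 1 of 8 fits with a queen left out, where the adjusted p reached 0.157, and edgeR's adjusted p was 0.183 with only the mated and virgin queens in the fit. Mated over CO2-treated queens gave -0.75 (adjusted p = 0.297) and CO2-treated over virgin queens -0.57 (adjusted p = 0.833) in edgeR's quasi-likelihood fit. Over the 12 queens the log2 CPM of Trh and Dat had a Pearson correlation of 0.80, and 0.44 after group means were removed, values that share the libraries and their scaling.

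The other 8 genes examined act in pterin cofactor supply, in the breakdown of tyrosine and tryptophan, or in the supply of beta-alanine, which is joined to dopamine in another inactivation route. They were picked by function, after the amine list proved hard to match, from the same ortholog names, which the study gives for genes it had called in these libraries, so the choice itself favours genes that differ and nothing is read from their shares or median. In mated against virgin queens 7 of the 8 had a positive and 1 a negative log2 fold change, with a median of 1.33 against -0.08 over all genes tested, and 2 were called higher, against 0.951% of all genes. Against CO2-treated queens the split was also 7 and 1 and 0 were called in edgeR's quasi-likelihood fit, with all 8 at an unadjusted p under 0.05, against 13.8% of all genes. Between CO2-treated and virgin queens 5 had positive and 3 negative values, and 0 were called by the same test, with 1 at an unadjusted p under 0.05, against 5.81% of all genes.

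CG5618 (GB50011), a predicted amino acid decarboxylase, was higher in mated queens, in the opposite direction to Dat. It stood at 154, 272, 310 and 239 CPM in mated queens 1, 4, 6 and 7, at 90.8, 108, 134 and 125 CPM in CO2-treated queens 1, 2, 5 and 7, and at 88.9, 97.1, 136 and 123 CPM in virgin queens 1, 2, 4 and 6. Mated queens overlapped neither other group, while CO2-treated and virgin queens covered nearly the same range. Mated over virgin queens gave a log2 fold change of 1.13 (SE 0.24) and an adjusted p of 0.0378 in edgeR's quasi-likelihood fit. That call held without mated queen 1 or virgin queen 6 and was lost without any of the other 6 queens (adjusted p 0.0539 to 0.142), and scaled by library totals the log2 fold change was 0.35 with an adjusted p of 0.155.

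CG9547 (GB45193), which encodes glutaryl-CoA dehydrogenase of lysine and tryptophan breakdown, was also called higher. It stood at 56.9, 71.2, 167 and 60.9 CPM in mated queens 1, 4, 6 and 7, against 19.8, 13.5, 27.4 and 36.0 CPM in virgin queens 1, 2, 4 and 6. CO2-treated queens were at 32.3 to 46.6 CPM, between the other groups but overlapping the virgin queens. The log2 fold change of mated over virgin queens was 1.88 (SE 0.37, adjusted p = 0.0284 in edgeR's quasi-likelihood fit). It was 1.32 with an adjusted p of 0.0856 without mated queen 6, and the call was also lost without mated queen 7 or virgin queens 1, 2 or 4 (adjusted p 0.0602 to 0.107).

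The remaining 6 did not pass in any comparison in edgeR's quasi-likelihood fit. Among the enzymes of tyrosine breakdown there were large but scattered differences of mated over virgin queens: hgo (homogentisate dioxygenase) had a log2 fold change of 2.57 (SE 0.72, adjusted p = 0.112), with mated queens at 3.40 to 42.8 CPM and virgin queens at 1.54 to 5.95 CPM, and CG11796 (4-hydroxyphenylpyruvate dioxygenase) had 1.59 (SE 0.56, adjusted p = 0.190). The third enzyme, Faa (fumarylacetoacetase), had 0.67 against virgin queens and 1.18 against CO2-treated queens (adjusted p = 0.0508). The beta-alanine enzyme pyd3 (beta-ureidopropionase) had 1.54 (SE 0.39, adjusted p = 0.0846) and cn (kynurenine 3-monooxygenase) 0.67 (adjusted p = 0.372) against virgin queens. Sptr (sepiapterin reductase), which serves the cofactor of the hydroxylases that make dopamine and serotonin precursors, had -1.15 (SE 0.83, adjusted p = 0.518), with virgin queens at 25.2 to 600 CPM, and its sign turned to 0.39 without virgin queen 6.

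**Figure D4:**
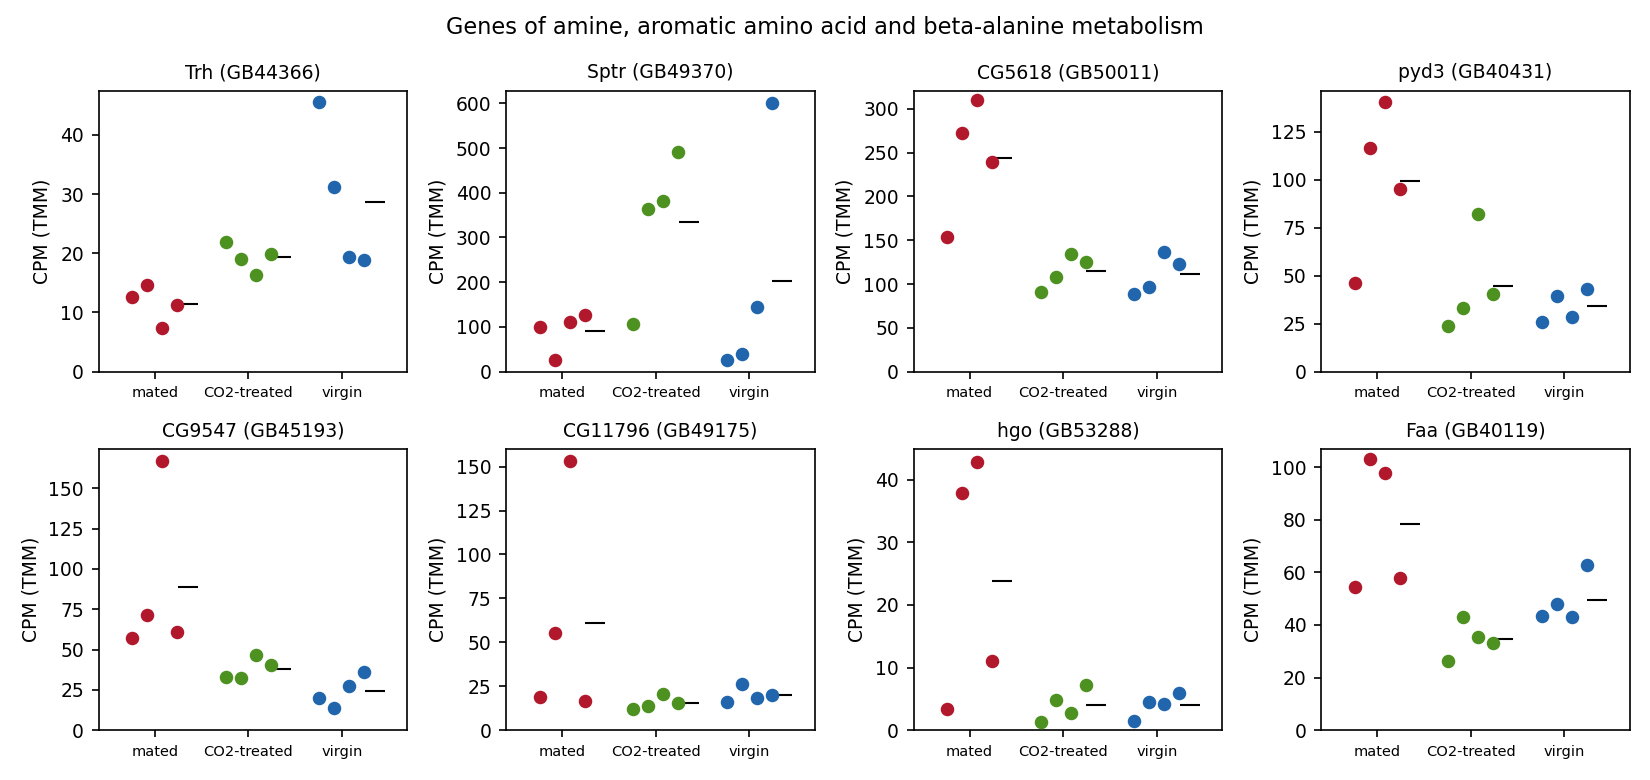
Levels in CPM (TMM-normalized, linear axes from 0, a scale for each gene) of 8 genes of amine, aromatic amino acid and beta-alanine metabolism. Points are queens and the black dash is the group mean (n = 4 each). Trh is lowest in mated queens, at 7.31 to 14.6 CPM, whereas CG5618 is highest there, at 154 to 310 CPM.

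**Figure D5:**
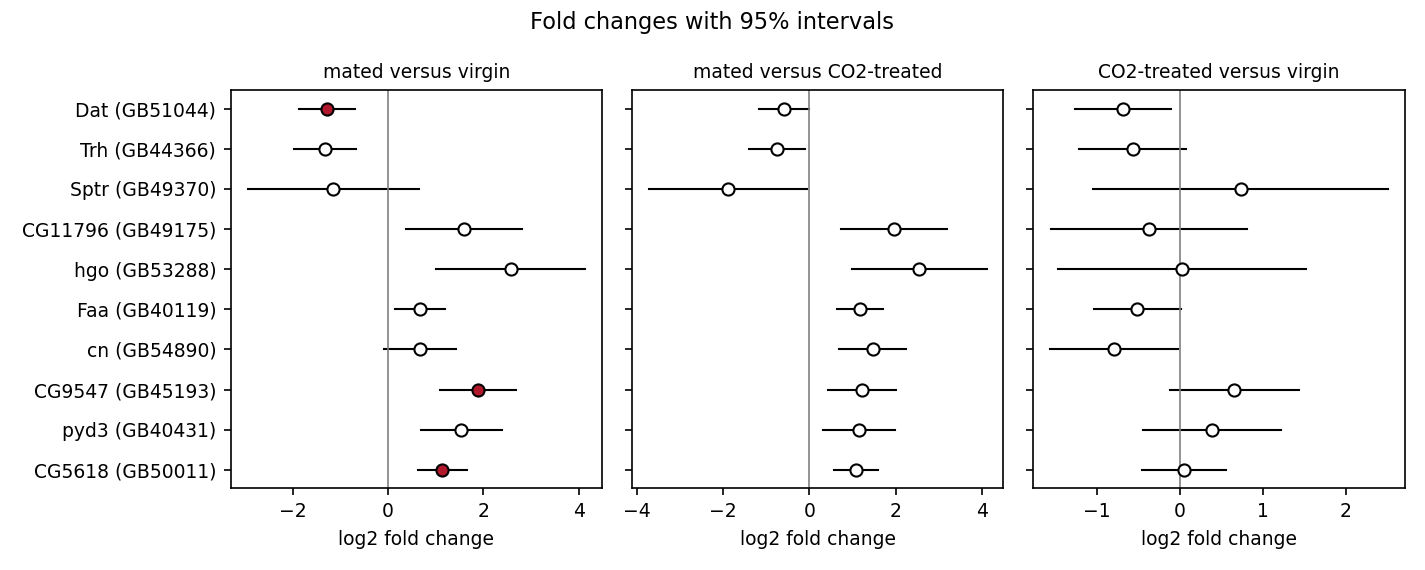
Log2 fold changes with 95% intervals for Dat, Trh and the 8 other genes in the 3 comparisons, from edgeR's quasi-likelihood fit. Red circles passed an adjusted p of 0.05 over all genes, and white ones did not. In mated over virgin queens Dat is called below 0, at -1.29, and CG9547 and CG5618 above 0, at 1.88 and 1.13.

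The gene identifiers numbered next to Dat did not follow it. GB51043, named arg (arginase, which splits arginine into urea and ornithine), was higher in mated queens at 64.9 to 100.4 CPM, against 12.6 to 23.3 CPM in virgin queens, with CO2-treated queens at 27.5 to 75.0 CPM. Its log2 fold change of mated over virgin queens was 2.24 (SE 0.34, adjusted p = 0.0110 in edgeR's quasi-likelihood fit), and it passed with each of the 8 queens left out. GB51045, which has no name in the sources used here, had -0.54 (SE 0.36, adjusted p = 0.481). Neighbouring numbers do not by themselves show that the genes lie side by side.

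The genes whose log2 CPM most resembled that of Dat over the 12 queens, among 10296 genes whose average log2 CPM was 1 or more, were GB42079 (Pearson correlation 0.95), GB49048 (0.95), GB54047 (0.94), GB44777, named CG17127 (0.94), and GB51331 (0.94). None of the 5 was called between mated and virgin queens in edgeR's quasi-likelihood fit, and GB44777 came nearest with a log2 fold change of -1.28 and an adjusted p of 0.0550. The most opposite were GB50454, named CG7000 (-0.94), GB48962 (-0.93), GB50374, named CG11152 (-0.93), GB50434, named CG8785 (-0.93), and GB43203 (-0.93). Of these GB50454 was called higher in mated queens, with a log2 fold change of 2.79 and an adjusted p of 0.0212 by the same test. Correlations above 0.8 with Dat were found for 130 genes, which share its libraries and their scaling.

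Median levels of several cell markers differed between the groups, but none was called in any comparison in edgeR's quasi-likelihood fit. RfaBp came nearest, with an adjusted p of 0.0717 by that test in mated over virgin queens. Markers were limited to names that could be tied to a row. The photoreceptor and hemocyte markers are genes that the study reports as called in these same libraries. The other markers were also tied to rows by name, and they are not shown to be free of that selection. No marker difference is therefore read as independent evidence of a direction. The summed level of 2 fat body and hemolymph genes, RfaBp and Hex70b, was 9582 to 22373 CPM in mated, 5519 to 8533 CPM in CO2-treated and 2165 to 7100 CPM in virgin queens, with mated queens above all others. RfaBp made up nearly all of that sum, and Hex70b overlapped between groups, at 14.9 to 136 CPM in mated, 6.19 to 29.8 CPM in CO2-treated and 13.8 to 24.9 CPM in virgin queens. That of 5 photoreceptor genes was 51.0 to 192 CPM in mated, 56.3 to 115 CPM in CO2-treated and 98.5 to 569 CPM in virgin queens, with virgin queens 1 and 2, the highest in Dat, also highest in this sum. Arr2 dominated it, and virgin queen 2 was not among the 2 highest queens in ninaC, norpA, chp or Cpn. Of 2 neuronal markers, syt was at 172 to 374 CPM in mated, 53.3 to 228 CPM in CO2-treated and 31.8 to 136 CPM in virgin queens. The group means of brp ran the opposite way, at 0.261 to 1.17, 0.762 to 1.75 and 0.215 to 4.25 CPM in that order. Mated over virgin queens gave 1.60 for syt (adjusted p = 0.179) and -1.57 for brp (adjusted p = 0.286) in edgeR's quasi-likelihood fit. Levels of brp were low throughout and near the detection limit in some queens. The sum of 2 hemocyte markers, Hml and srp, was 843 to 2647 CPM in mated, 775 to 3328 CPM in CO2-treated and 319 to 1446 CPM in virgin queens. The groups overlapped, with medians of 2439, 1089 and 466 CPM in that order, and neither gene passed in mated over virgin queens in edgeR's quasi-likelihood fit (log2 fold change 1.64 with an adjusted p of 0.213 for Hml, and 1.53 with 0.282 for srp). The muscle marker Tm2 overlapped between all groups, at 35.3 to 426 CPM in mated, 28.0 to 176 CPM in CO2-treated and 29.7 to 297 CPM in virgin queens. No marker was at 0 in any group, and the part of these tissues in the difference in Dat was not tested.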

How the data were processed

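Brains of 12 queens were sequenced singly as 50 bp single-end reads. The authors trimmed the reads with Trimmomatic, removed ribosomal reads, aligned the rest with TopHat to honey bee assembly 4.5 and counted them per gene with SAMtools, and the deposited counts are not normalized. The deposited standardized score was made by the authors by centring and scaling each library over genes and then each gene over queens, which was recomputed from the counts. Groups came from the sample titles, and 0 columns were left unmapped. The titles of mated queen 1, CO2-treated queens 1 and 2 and virgin queen 1 end in br, a suffix that the labels do not explain. The sequencing lane of each library is not given, so lanes could not be taken into account. Genes were kept if their sum over the 12 libraries reached 10 counts, TMM-normalized and fitted over all 3 groups with edgeR 4.0.16 (R 4.3.3, quasi-likelihood test, Benjamini-Hochberg adjustment over all genes, threshold 0.05). On simulated counts with 200 genes changed 4-fold in mated queens only, 85% were recovered in mated against virgin queens. Dat differed 2.44-fold, so that share does not describe a change of its size. Log2 CPM used a prior count of 2. p-values measure the spread between sister queens. DESeq2 1.42.0, other scalings, filters and models, and leaving out each queen were the alternatives. Named genes were Dat, matched genes of the amine list, the identifiers numbered next to it, and the 5 most alike and 5 most opposite genes; 8 further metabolic genes were added afterwards by function. The gene and the lists were chosen with earlier results of these data known. The identifier GB51044 could not be linked to the RefSeq table, so no sequence or position is given.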

Additional observations from a re-analysis of the deposited data

Results flagged for a closer look

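In CG9547 (GB45193), mated queen 6 stood apart from the other mated queens at 167 CPM, against 71.2 CPM in the next, a gap of 0.870 of the group's range. In arg (GB51043), CO2-treated queen 5 stood apart at 75.0 CPM, against 33.4 CPM in the next CO2-treated queen, a gap of 0.876 of the range. Both exceed the 95% limit of Dixon's test for 4 values, and 39 groups of 4 queens were examined, of which chance alone passes about 1 in 20. Dat passed it in none of its 3 groups.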

How the results depend on the processing

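Dat was lower in mated than in virgin queens under the 12 alternatives tried first and passed in 9. It did not pass with the queen number as a replicate block (log2 fold change -1.06, adjusted p = 0.160), with edgeR's exact test and 1 common dispersion from the 2 groups (-1.29, 0.0550), or with only the groups compared in edgeR's quasi-likelihood fit (-1.29, 0.154). After these had been seen, the exact test was also run with dispersions from all 12 queens and passed (common 0.0148, tagwise 0.00554 adjusted p). That version was chosen with the miss of the 2-group one and the study's own result for Dat both known. The study's methods do not state which queens gave the dispersion. With its common dispersion, 829 genes were called between mated and virgin queens (654 higher, 175 lower). Between CO2-treated and virgin queens 151 were called (117 higher, 34 lower), and between mated and CO2-treated queens 627. The study reports the same counts for both comparisons with virgin queens and nearly the same count for the other comparison. The added version, whose common form comes close to repeating the study's test, therefore carries no weight of its own. Leaving out 1 queen gave -1.49 to -1.06 for mated against virgin, -0.73 to -0.51 for mated against CO2-treated, -0.89 to -0.46 for CO2-treated against virgin and -0.15 to 0.069 against the midpoint, which was 0.22 with library totals. The exact permutation differences were -1.49 to -1.03 (mated against virgin, p = 0.0286 to 0.0571, the higher value without any 1 of the 4 mated queens) and -0.87 to -0.40 (CO2-treated against virgin). The queen numbers name different animals, and the study describes no pairing by number. After group means were removed, 7 same-numbered pairs of queens had a mean correlation of 0.17 (-0.28 to 0.51). The 41 differently numbered pairs had a mean of -0.03 (-0.63 to 0.39). Whether queens of 1 number share anything was not tested. Genes called between mated and virgin queens, 157 as reported, were 4398 with library totals (160 higher, 4238 lower, against 124 and 33), 255 with the title suffix as a term, 304 and 632 with the exact test (tagwise and common dispersion), 505 and 829 with its added version, 44 with only the groups compared, 620 with DESeq2 and 28 to 279 with 1 queen left out. Between mated and CO2-treated queens, 86 as reported, they were 97 with library totals (24 higher, 73 lower, against 68 and 18), 10 with the block, 582 and 975 with the exact test, 294 and 627 with its added version, 413 with DESeq2 and 18 to 179 with 1 queen left out. Between CO2-treated and virgin queens, 2 as reported, they were 0 with library totals, the block or only the groups compared, 1 with upper-quartile factors, with 10 counts in every library or with the suffix, 38 and 164 with the exact test, 18 and 151 with its added version, 20 with DESeq2 and 1 to 2 with 1 queen left out. Of the 2 amine genes, 1 as reported was called between mated and virgin queens, 2 with library totals, the suffix, the tagwise exact test, both added exact tests or DESeq2, 0 with the block or only the groups compared, and 0 to 2 with 1 queen left out. With library totals Faa (-0.10) and cn (-0.16) turned negative in mated against virgin queens, and Sptr ranged from -1.52 to 0.39 with 1 queen left out, turning positive without virgin queen 6. With 4 queens a group and 798 or more reads for Dat in each library, the number of queens and not depth limits these values.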

Other observations

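The deposited standardized scores placed Dat and Trh on opposite sides of the groups. The scores of Dat were -0.78 to -0.70 in mated queens, -0.43 to 0.35 in CO2-treated queens and -0.31 to 2.57 in virgin queens, the same order as its CPM. Those of Trh were 0.70 to 1.26 in mated queens, -1.31 to -0.12 in CO2-treated queens and -0.79 to 1.12 in virgin queens, although Trh was lowest in mated queens in CPM. In the scores each library is first divided by its SD over genes, and GB49544 took 13.7 to 42.7% of the reads in mated queens, so the scores of genes are not read here as levels.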
